A study of Mus musculus with 24 samples.

Results

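The change of messenger RNA within 30 min of anti-CD3 was compared between 6 mice lacking the transcription factor Sap-1 and 6 mice having it, over all 45037 probe sets of the Affymetrix Mouse430_2 array that are no spike-in or other control. For each of the 12 mice the change was the log2 signal of its anti-CD3 array minus that of its untreated array, called its response here, so that 1 unit is a doubling. The 24 arrays, all those of the series, paired by genotype and mouse number. The cells were thymocytes positive for both CD4 and CD8 (DP cells), a stage at which developing T cells are tested in the thymus for how strongly their receptor signals. They were sorted from the thymus of male Black 6J mice aged 8 weeks with anti-CD4 and anti-CD8, rested for 2 h and spun onto plates that carried anti-CD3, an antibody that triggers the receptor complex, or onto plates without it.

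The 6 mice lacking Sap-1 were 3 SapKO and 3 ElkSapKO animals, and the 6 having it were 3 wild-type (WT) and 3 ElkKO animals. Both sets thus hold 3 mice without Elk-1. Sap and Elk were read as Sap-1 (gene Elk4) and Elk-1 (gene Elk1). The labels do not say how the alleles were made or in which cells they act, so their reach outside DP cells was not known here. In bulk samples of this kind, fewer cells of a type and less RNA per cell cannot be told apart.

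Both factors belong to the ternary complex factors, a branch of the ETS family whose proteins sit on DNA beside serum response factor (Srf) and are activated when the ERK kinases phosphorylate them. In T cell development this route carries the receptor signal to immediate early genes, such as those of the Egr family, within minutes. Egr proteins in turn act on genes needed for positive selection, the step in which a DP cell with a useful receptor is kept.

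The arrays carried the labelled cells and the labelled deletion. In the untreated arrays Cd4 lay between 10.6 and 11.7, Cd8a between 12.1 and 13.0 and Rag1 between 12.9 and 13.2 on the log2 scale, whereas Xist, which male cells do not transcribe, reached 5.07 at most over 3 probe sets and gives a reference for background. Elk4 (1427162_a_at) lay between 10.35 and 10.88 in the untreated cells of the 6 mice having Sap-1 and between 6.13 and 7.85 in the 6 lacking it, a difference of -3.53 (adjusted p = 4.5e-05, limma), and the groups did not overlap. The 3 Elk1 probe sets were dim, at 2.61 to 5.23 over all arrays of all genotypes, and were no clear check of the Elk-1 deletion. The array of untreated cells from ElkSapKO mouse 2 was unlike the rest. Its relative log expression, the deviation of each probe set from its median over arrays, had an interquartile range of 0.782, against 0.182 to 0.383 in the other 23 arrays. Values without this mouse are given beside the results it moved most. The dap spike-in, a control RNA, was at 6.27 to 6.52 in 4 mice (2 WT and 2 SapKO) and at 9.05 to 9.71 in the other 8.

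The response difference passed the test for 1 probe set, which measures Egr3. That is 0.00222% of the 45037 tested with limma at an adjusted p under 0.05. At an unadjusted p under 0.05, 923 probe sets (2.05%) had a smaller and 587 (1.3%) a larger change without Sap-1, 3.35% in all. The balance of the 2 directions was not stable: the shares were 1.67% and 1.65% with arrays centred on their medians, 0.777% and 1.18% among probe sets with a mean of at least 6, 0.928% and 0.913% with array weights, and 1.34% and 1.49% without ElkSapKO mouse 2. Without ElkSapKO mouse 3 they were 7.09% and 7.16%. The 6 responses without Sap-1 all lay below the 6 with it for 56 probe sets (0.124%) and all above them for 26 (0.0577%), 0.182% together. Each single gene other than Egr3 (1436329_at) named from here on did not pass the adjusted test of the response difference, and its values are a description with an unadjusted p.

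Egr3, a zinc finger factor of the Egr family, had the largest difference of all probe sets. Its 6 responses with Sap-1 ran from 6.84 over a median of 7.39 to 7.79, and the 6 without from 3.81 over 4.87 to 5.54. By genotype the responses were 6.84, 7.79 and 7.36 in WT, 7.13, 7.50 and 7.42 in ElkKO, 4.91, 4.60 and 4.83 in SapKO, and 5.07, 5.54 and 3.81 in ElkSapKO mice. Each mouse lacking Sap-1 was therefore below each mouse having it, and the lowest response was that of ElkSapKO mouse 3. The mean response was 7.34 with Sap-1 (SD 0.33, n = 6) and 4.79 without (SD 0.58, n = 6). The difference was -2.55 (SE 0.26, 95% interval -3.11 to -1.99, limma adjusted p = 0.0136). The exact two-sided permutation test of this value gave p = 0.00216, the smallest that 6 against 6 mice allow. Every probe set without overlap, 0.182% of all, has this same p, so it adds nothing to the lack of overlap.

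The gap in Egr3 was present after anti-CD3 and not before. Untreated, it was at 2.73 to 3.33 with Sap-1 and at 2.38 to 3.73 without, below the highest Xist value in all 12 mice, so the size of the rise is set against a start that is not above background. After anti-CD3 it was at 10.2 to 10.7 with Sap-1 and at 6.84 to 8.33 without, with no overlap, a difference of -2.57 (adjusted p = 7.6e-06, limma). The Egr3 response was smaller by nearly the same amount on both Elk-1 backgrounds, at -2.55 for SapKO against WT and -2.54 for ElkSapKO against ElkKO. The interaction of 0.01 had an unadjusted p of 0.98 in limma. How close the match is depends on single ElkSapKO mice. Over both backgrounds the Egr3 difference was -2.73 without ElkSapKO mouse 2 and -2.30 without ElkSapKO mouse 3. Presence or absence of Elk-1 moved the Egr3 response by 0.03 (adjusted p = 0.99).

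The Egr3 call depended on the variance model, on the dap group and on which mice were included. Its value stayed between -2.30 and -3.05 over the alternatives run, and its adjusted p rose to 0.18 with a mean-variance trend and robust settings, to 0.052 with the dap group as a covariate, and to between 0.054 and 0.11 when any mouse but WT mouse 1 and ElkSapKO mice 2 and 3 was left out. Within the 4 mice of low dap signal the difference was -2.45 (limma adjusted p = 0.9999), and within the 8 of high dap signal it was -2.60 (adjusted p = 0.36). Without ElkSapKO mouse 2 it was -2.73 (adjusted p = 0.00067). A second Egr3 probe set (1421486_at) had responses of 0.46 to 1.43 with Sap-1 and -0.51 to 0.50 without, which overlapped, and a difference of -0.70 (unadjusted p = 0.0018).

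**Figure D1:**
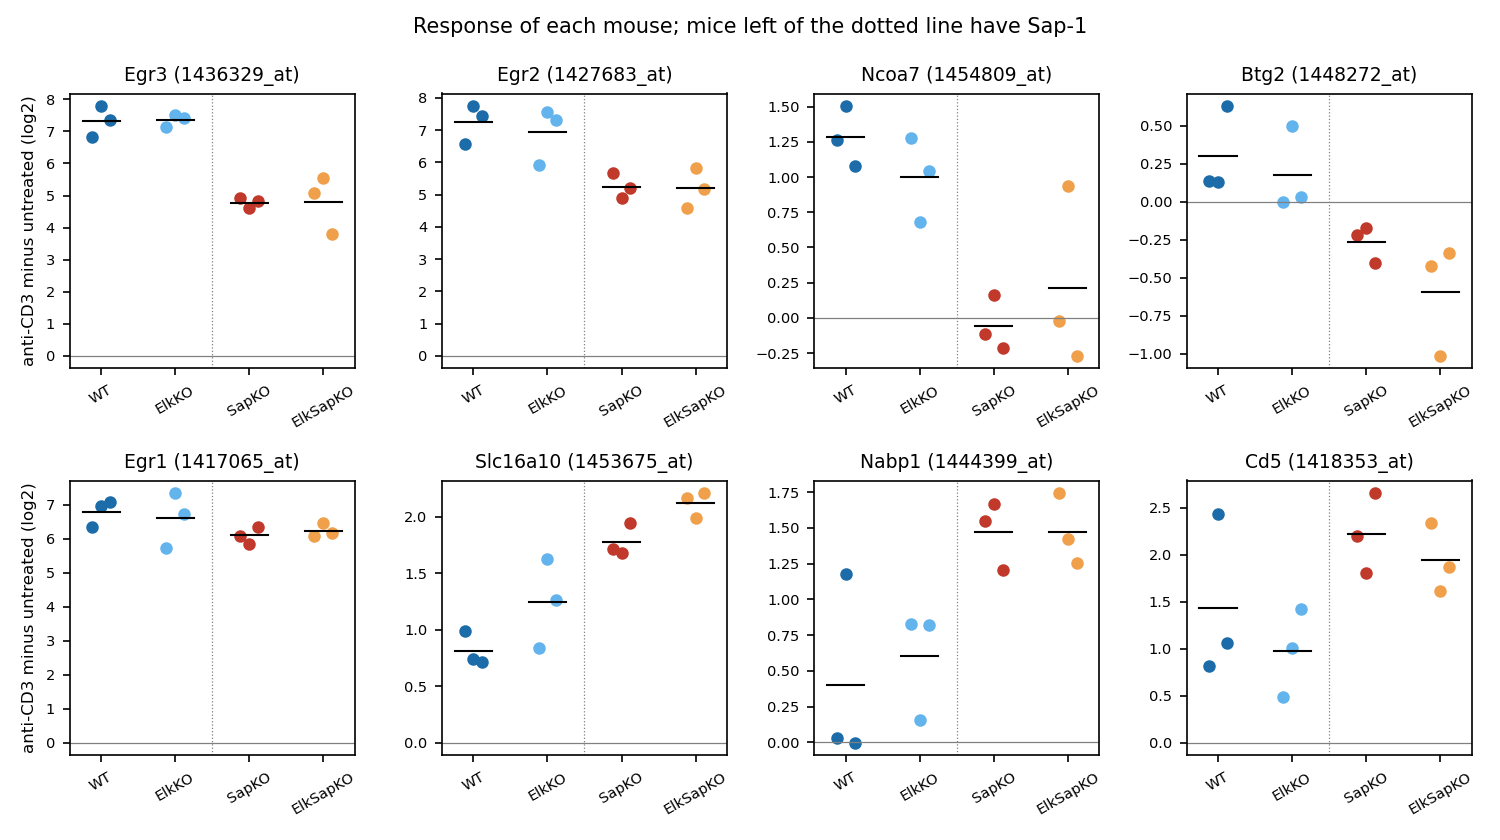
Response to anti-CD3 of each mouse, anti-CD3 minus untreated on the log2 scale, for 8 probe sets by genotype. Points are mice (3 per genotype), black lines are genotype means, and the dotted line separates mice having Sap-1 from those lacking it. Egr3 and Egr2 lie lower in all 6 mice lacking Sap-1, Slc16a10 and this Nabp1 probe set lie higher in all 6, and Egr1 and Cd5 overlap.

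Egr2, the relative of Egr3 that acts with it in thymocytes, had the next largest smaller rises. On 1427682_a_at the 6 responses ran from 5.94 over a median of 6.70 to 6.95 with Sap-1 and from 4.30 over 5.15 to 5.87 without. On 1427683_at they ran from 5.91 over 7.37 to 7.75 with it and from 4.57 over 5.19 to 5.83 without. The groups did not overlap on either probe set, though the margin was narrow on both. The differences were -1.52 (95% interval -2.02 to -1.03, adjusted p = 0.30) and -1.87 (95% interval -2.56 to -1.18, adjusted p = 0.53). Each had the exact permutation p of 0.00216 that every probe set without overlap has, which is no separate support. Untreated Egr2 was at most 4.63 and 5.59, near background, and differed by 0.05 and 0.18, and after anti-CD3 its level without Sap-1 was lower by 1.47 and 1.69, both called (adjusted p = 0.00050 and 1.3e-05, limma).

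Egr1, an immediate early member of the family, rose strongly whatever the Sap-1 status. Its responses were 5.71 to 7.34 with Sap-1 and 5.85 to 6.44 without, and they overlapped. The difference was -0.54 (95% interval -1.06 to -0.02, unadjusted p = 0.045, adjusted p = 0.82), or a 71.4-fold rise against a 104-fold rise. After anti-CD3, however, the 6 levels without Sap-1 (12.04 to 12.74) all lay below the 6 with it (13.19 to 13.52), and that level difference of -0.90 was called (adjusted p = 0.00050). The untreated levels overlapped, and they were highest in ElkKO mouse 1, at 7.55.

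Of the other members of the Egr axis, Egr4, Nab2 and Id3 were looked up after the values were seen. Egr4 averaged 5.003 over all 24 arrays, with a difference of -0.44 (unadjusted p = 0.044). Nab2, which binds Egr proteins and restrains them, had a difference of -0.51 (95% interval -1.11 to 0.09) in the response, or -0.24 without ElkSapKO mouse 2, and was lower without Sap-1 after anti-CD3 by 1.18, a called difference (adjusted p = 0.011). Id3, an inhibitor of E proteins that lies downstream of Egr factors, rose by 0.74 with Sap-1 and by 0.75 without, a difference of 0.01 (95% interval -0.38 to 0.39). Over the 23 probe sets found for 11 of the 12 genes of the Egr, Nab and Id3 list, 6 had a smaller and 0 a larger change at an unadjusted p under 0.05, which is 26.1% of the list beside 3.35% of all probe sets. The median difference was -0.13. All 6 are Egr1, Egr2, Egr3 or Egr4 probe sets described above, none is a Nab or Id3 probe set, and lists below count them again. This list too was chosen with earlier results of these data known, so its share is no independent evidence.

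Sequence upstream of transcription starts is shown for Egr2, Ncoa7 and Zfp36, which had smaller changes at an unadjusted p under 0.05 and whose RefSeq windows of 250 bases (GRCm38.p6) held a CArG box, the Srf site. Both strands were searched for the CArG box and for CCGGAA, a form of ETS site, and capitals mark the matches. In Egr2 overlapping matches to CCGGAA on both strands make 1 longer run of capitals.
Egr2, chr10:67537316-67537565, plus strand: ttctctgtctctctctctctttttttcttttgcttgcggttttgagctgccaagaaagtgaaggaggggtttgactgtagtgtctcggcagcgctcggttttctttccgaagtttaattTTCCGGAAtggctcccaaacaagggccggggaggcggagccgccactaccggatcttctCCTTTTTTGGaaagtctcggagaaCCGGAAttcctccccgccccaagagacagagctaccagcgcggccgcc
Ncoa7, chr10:30655868-30656117, minus strand: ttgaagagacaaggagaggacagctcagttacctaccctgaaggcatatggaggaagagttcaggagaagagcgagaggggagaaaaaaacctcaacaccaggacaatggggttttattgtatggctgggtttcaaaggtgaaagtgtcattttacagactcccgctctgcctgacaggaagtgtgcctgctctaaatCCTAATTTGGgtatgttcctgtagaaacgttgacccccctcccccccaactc
Zfp36, chr7:28379229-28379478, minus strand: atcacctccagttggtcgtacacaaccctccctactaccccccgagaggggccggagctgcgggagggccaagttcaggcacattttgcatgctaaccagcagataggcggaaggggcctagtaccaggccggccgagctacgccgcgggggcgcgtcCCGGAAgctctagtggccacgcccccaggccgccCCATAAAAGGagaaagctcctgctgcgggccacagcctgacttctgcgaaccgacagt
The CArG box starts 72 bases before the transcription start in this Egr2 window, 52 before it in Ncoa7 and 58 before it in Zfp36, and the CCGGAA of Zfp36 lies 92 bases before the start. Of the 5 Egr2 windows listed, 4 held a CArG box, but all of these except the one shown overlap and hold the same single site. The window shown is the only Egr2 window with CCGGAA. For Ncoa7, 1 of the 2 windows held a CArG box. Among all 32851 windows, 1.47% held a CArG box and 12.03% held CCGGAA. The windows of Btg2, Junb, Irf3, Cxcr4 and Egr4, which had smaller changes at that p, held neither motif, nor did those of Fos, Nab2 and Dusp2. The windows of Slc16a10, Cd5 and Ccl3, with larger changes, held neither either, and that of Nabp1 held CCGGAA only. Those of Dusp5 and Srf, whose response differences had intervals that include 0, held 2 CArG boxes each. No window was used for Egr3, Egr1, Ier2 and Fosl1. Other forms of these sites, and sites outside the 250 bases, were not searched, so a window with neither motif may still have such a site. These are matches of letters, and Sap-1 binding was not measured in these data.

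Immediate early genes known as targets of ternary complex factors and Srf were read from a list of 24 genes, of which 23 had 42 probe sets. At an unadjusted p under 0.05, 12 of these had a smaller change without Sap-1 and 0 a larger one, which is 28.6% of the list beside 3.35% of all probe sets. Their median difference was -0.18, and that of all probe sets was -0.01. Over the 24 alternatives the number with smaller changes ranged from 6 to 13 and the number with larger changes from 0 to 4. It was 11 and 0 without ElkSapKO mouse 2, and 9 and 4 without ElkKO mouse 2. The list was chosen with earlier results of these data known, so its direction is no independent evidence.

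The 12 probe sets belong to Egr1, Egr2, Egr3, Egr4, Fosl1, Junb, Ier2, Btg2 and Zfp36. Zfp36, which binds AU-rich messages and speeds their decay, had responses of 2.10 to 2.65 with Sap-1 and 1.69 to 2.10 without, touching at 2.10, and a difference of -0.47 (SE 0.12, unadjusted p = 0.0018). Ier2, an early nuclear protein, ran from 2.97 over 3.74 to 3.87 and from 1.93 over 3.11 to 3.26, a difference of -0.70 (SE 0.23, unadjusted p = 0.010). The 2 groups overlapped for Ier2, and its lowest response was that of ElkSapKO mouse 2, without which the difference was -0.49. Junb, an AP-1 subunit, rose by 2.48 with Sap-1 and by 1.98 without, a difference of -0.49 (95% interval -0.91 to -0.07).

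Btg2, an antiproliferative gene, was bright in both states. On 1448272_at its responses ran from -0.00 over a median of 0.13 to 0.63 with Sap-1 and from -1.01 over -0.37 to -0.17 without, so the groups did not overlap. The difference was -0.67 (SE 0.15, unadjusted p = 0.00093), and -0.56 without ElkSapKO mouse 2, whose response was the lowest. The second Btg2 probe set (1416250_at) differed by -0.43 with overlapping groups. Fosl1, another AP-1 subunit, had responses of 0.54 to 0.79 with Sap-1 and -0.16 to 0.39 without, but its signal stayed below the highest Xist value on every array.

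Of other strongly induced early genes, Fos, Nr4a1 and Cd69 had smaller differences with wide intervals. Fosb, looked up after the values were seen, rose by 2.37 with Sap-1 and by 1.71 without. Its difference of -0.65 had a 95% interval of -1.59 to 0.29, and was -0.54 without ElkSapKO mouse 2. Fos rose by 4.24 with Sap-1 and by 3.99 without, with single responses from 1.96 to 6.13, and the difference of -0.26 had a 95% interval of -1.42 to 0.91. The spread came in part from the untreated cells, where ElkKO mouse 1 had Fos at 9.06 and the other 11 mice at 5.38 to 7.37. After anti-CD3, Fos was at 10.6 to 11.5 with Sap-1 and at 9.47 to 10.4 without, and this level difference of -0.98 was called (adjusted p = 0.023). That call was lost when WT mouse 1, SapKO mouse 1, 2 or 3, ElkKO mouse 1 or ElkSapKO mouse 2 was left out (adjusted p up to 0.096, limma). Nr4a1, an orphan receptor that reports receptor signal strength, differed by -0.21 (95% interval -1.18 to 0.75), and by -0.06 without ElkSapKO mouse 2. Cd69, an early activation marker on the cell surface, differed by 0.12 (95% interval -1.03 to 1.27), which turned to -0.10 without that mouse, and its levels after anti-CD3 were 10.2 to 10.9 with and 10.3 to 10.9 without Sap-1. For Fos, Fosb, Nr4a1 and Cd69 the intervals reach beyond a doubling in at least 1 direction, so these responses are not shown to be alike.

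The intervals were narrower for regulators that feed back on receptor signalling, though that of Dusp6 still reached beyond a halving. Dusp2, a phosphatase that acts on ERK in the nucleus, rose by 3.01 with Sap-1 and by 2.67 without, a difference of -0.34 (95% interval -0.72 to 0.04). Nfkbid and Nfkbiz, nuclear proteins of the IkB family, differed by -0.30 (95% interval -0.65 to 0.05) and, on 1457404_at, by -0.06 (95% interval -0.50 to 0.38), the latter -0.17 without ElkSapKO mouse 2. Nfkbiz differed by -0.47 on 1448728_a_at and by 0.08 on 1417483_at, or by -0.25 and -0.15 without that mouse. Dusp5 and Dusp6, also ERK phosphatases, were looked up after the values were seen. Dusp5 differed by -0.21 (95% interval -0.60 to 0.18), and by -0.05 without ElkSapKO mouse 2. Dusp6 differed by -0.33 (95% interval -1.04 to 0.38), so its responses are not shown to be alike. Without ElkSapKO mouse 2 the Dusp6 difference was -0.67 (95% interval -1.06 to -0.29, unadjusted p = 0.0024, limma) and was not called. Among the 43 probe sets of ERK feedback regulators, 1 (Dusp7) had a smaller and 0 a larger change at an unadjusted p under 0.05, and among 27 for NF-kB feedback and targets 0 did. The 36 probe sets of the ERK cascade from Ras to the kinase held 0 as well, with a median difference of 0.14.

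**Figure D2:**
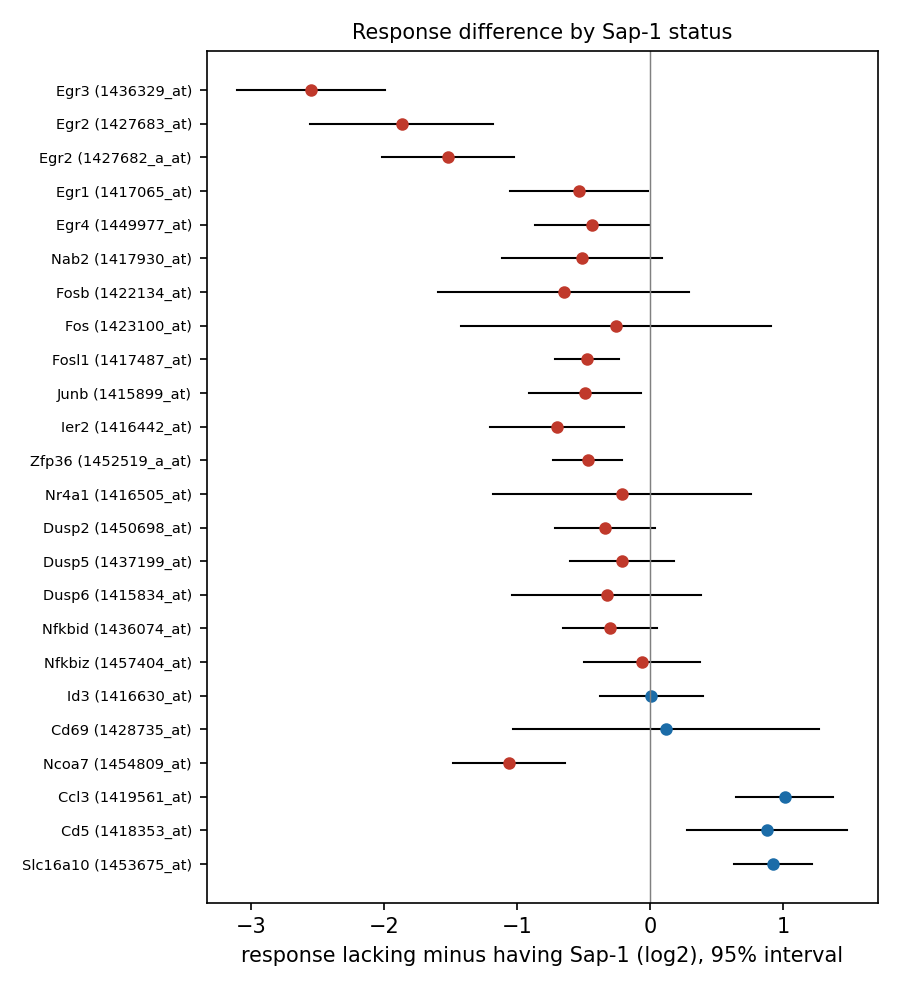
Response difference by Sap-1 status, lacking minus having, for 24 probe sets on the log2 scale. Points are differences of the means of 6 and 6 mice and lines are 95% intervals from limma, with red for smaller and blue for larger responses without Sap-1. Egr3 and both Egr2 probe sets lie furthest to the left, at -2.55, -1.87 and -1.52. Fos, Fosb, Nr4a1 and Cd69 have wide intervals that include 0.

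Ncoa7, a nuclear receptor coactivator that also takes part in defence against oxidative stress, differed both before and after anti-CD3. Untreated, it was at 8.13 to 8.51 with Sap-1 and at 6.34 to 7.36 without (difference -1.31, adjusted p = 0.0074), and after anti-CD3 at 9.04 to 9.63 and at 6.90 to 7.28 (difference -2.37, adjusted p = 3.7e-08). The groups did not overlap in either state. Its responses ran from 0.68 over a median of 1.17 to 1.504 with Sap-1 and from -0.27 over -0.07 to 0.93 without. They overlapped only through ElkSapKO mouse 2, whose 0.93 came from the lowest untreated level of all mice. The response difference was -1.06 (SE 0.20, adjusted p = 0.75), and without that mouse it was -1.24 and was called (adjusted p = 0.011). A second, dimmer Ncoa7 probe set (1441540_at, mean 5.30) differed by 0.45 with overlapping groups (unadjusted p = 0.26), and by 0.02 without ElkSapKO mouse 2.

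Irf3, best known for driving interferon genes, was measured by 4 probe sets. On 1435271_at its responses ran from 0.34 over 0.78 to 1.32 with it and from -0.21 over -0.11 to -0.02 without, with no overlap, a difference of -0.88 (SE 0.15, unadjusted p = 7.1e-05). The other 3 Irf3 probe sets differed by -0.27 to -0.61, and on 2 of them single responses without Sap-1 were above 0, up to 0.22. Cxcr4, the chemokine receptor that holds thymocytes in the cortex, ran from -0.17 to 0.27 with Sap-1 and from -0.67 to -0.21 without, also with no overlap, a difference of -0.47 (unadjusted p = 0.0018). Pdcd1lg2, Kctd8 and Particl were also among the 10 smallest p with a smaller change, but their signal stayed below the highest Xist value on every array.

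Among larger changes without Sap-1 the smallest p was that of Slc16a10, a transporter of aromatic amino acids. On 1453675_at the responses ran from 0.72 over a median of 0.91 to 1.62 with Sap-1 and from 1.68 over 1.97 to 2.21 without. Every mouse lacking Sap-1 lay above every mouse having it, by a narrow margin at ElkKO mouse 2. The difference was 0.92 (95% interval 0.63 to 1.22, adjusted p = 0.30), and the exact permutation p was 0.00216, that of every probe set without overlap. Its 3 other probe sets differed by -0.13 to 0.12 and overlapped, and the level of 1453675_at after anti-CD3 was 4.898 to 5.69 with and 5.58 to 6.57 without Sap-1. Untreated, that probe set reached 4.51 at most, below the highest Xist value.

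Nabp1, a single-stranded DNA binding protein of DNA repair, was measured by 6 probe sets, and all 6 had larger rises without Sap-1. The differences were between 0.60 and 0.97, at unadjusted p from 0.00062 to 0.020 in limma. The probe sets measure the same messages, so they are not 6 independent results. Without ElkSapKO mouse 2 the differences were between 0.40 and 0.98, and only that of 1444399_at did not fall. On 1444399_at the responses were 0.03, 1.18 and -0.00 in WT, 0.83, 0.16 and 0.82 in ElkKO, 1.55, 1.67 and 1.20 in SapKO, and 1.74, 1.42 and 1.26 in ElkSapKO mice, with no overlap by Sap-1 status. On 1460521_a_at the groups overlapped and ElkSapKO mouse 2 was far above the other mice at 3.00, without which the difference fell from 0.87 to 0.54.

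Ccl3, a chemokine, stayed between 3.29 and 3.70 untreated in all 12 mice. After anti-CD3 it was at 3.34 to 4.18 with Sap-1 and at 4.22 to 5.59 without, a called level difference of 1.03 (adjusted p = 0.029) near the background reference. That call was lost on leaving out 8 of the 12 mice in turn, all but WT mouse 2, SapKO mice 1 and 2 and ElkSapKO mouse 3 (adjusted p up to 0.13, limma). Its response difference was 1.01 (95% interval 0.64 to 1.38, adjusted p = 0.53). SapKO mice had the highest values, at 4.57 to 5.59. The neighbouring chemokine gene Ccl4, looked up after the values were seen, rose by 1.57 with and by 1.67 without Sap-1, a difference of 0.10. The other named probe sets among the 10 smallest p with a larger change were those of Hcrtr2, Thoc1, Spata5, Glce, Huwe1 and Plekhh1, with differences of 0.39 to 0.58. The signal of Hcrtr2, Thoc1, Spata5 and Plekhh1 stayed below the highest Xist value on every array.

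Cd5, a surface receptor that dampens receptor signals, reached a similar level from different starts. Its responses ran from 0.48 over a median of 1.03 to 2.43 with Sap-1 and from 1.62 over 2.04 to 2.66 without, and WT mouse 2 caused the overlap. The difference was 0.88 (SE 0.28, unadjusted p = 0.0078). Untreated, Cd5 was at 6.62 to 7.70 with and 5.50 to 6.97 without Sap-1, a difference of -0.81 that was not called (adjusted p = 0.83), and after anti-CD3 the levels differed by 0.07. The interval of its response difference, 0.28 to 1.48, lies above 0, but the call was not made over all probe sets.

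**Figure D3:**
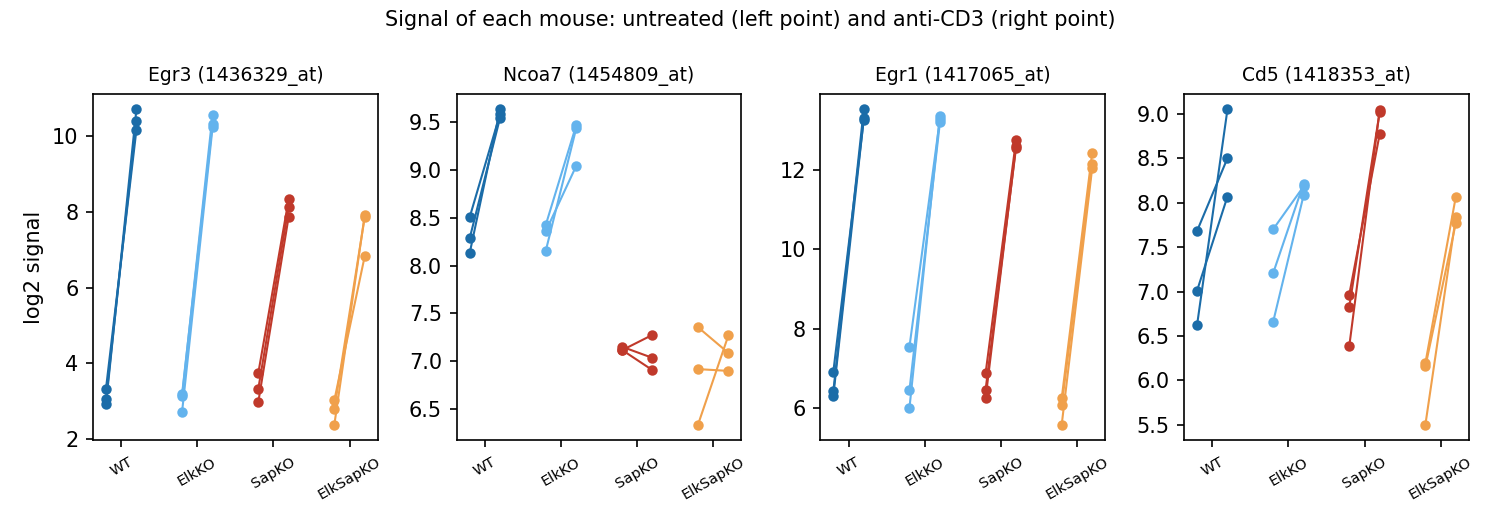
Log2 signal of each mouse, untreated (left point) joined to anti-CD3 (right point), for Egr3, Ncoa7, Egr1 and Cd5 by genotype with 3 mice each. Egr3 starts below 3.8 everywhere and ends apart by Sap-1 status, Ncoa7 is apart in both states, Egr1 is apart after anti-CD3, and Cd5 is not.

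The other gene lists were read against the 3.35% of all probe sets with an unadjusted p under 0.05. Of 38 probe sets for positive selection and maturation genes, 1 (Cxcr4) had a smaller and 2 (Cd5 and Cd28) a larger change at that p, 7.89% of the list. Cd28, the costimulatory receptor, had responses of 0.08 to 0.63 with Sap-1 and 0.56 to 1.41 without, a difference of 0.46, or 0.35 without ElkSapKO mouse 2. Of 44 for Nr4a receptors and negative selection genes, 1 was smaller and 2 were larger (6.82%), among them Ikzf2, a zinc finger factor seen in strongly signalled thymocytes. On 1456956_at its difference of 0.92 was 0.49 without ElkSapKO mouse 2. The Ikzf2 probe sets 1421643_at and 1437542_at differed by 0.14 and 0.00, and did not rise on average (mean responses -0.22 and -0.08). Of 37 for Srf targets in the cytoskeleton that depend on myocardin-related factors, 1 was smaller (2.70%). The 42 for NFAT and calcium targets held 4 smaller and 1 larger (11.9%), and the 4 smaller were the Egr2 and Egr3 probe sets.

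No probe set of the ternary complex factors or Srf passed the test of the response difference. Elk4 (1427162_a_at) had a response difference of 0.40 (95% interval -0.04 to 0.84), and 0.19 without ElkSapKO mouse 2. The other 3 Elk4 probe sets differed by -0.21 to 0.08, with intervals that include 0, and by 0.05 to 0.24 without that mouse. Srf rose by 0.91 with Sap-1 and by 0.94 without on 1418255_s_at, a difference of 0.03 (95% interval -0.40 to 0.46). On 1418256_at the Srf difference was -0.31 (95% interval -0.80 to 0.18), and -0.08 without ElkSapKO mouse 2. The 4 Elk3 probe sets, for the third ternary complex factor, differed by -0.12 to 0.43 and the 3 Elk1 probe sets by -0.25 to 0.09, all with intervals that include 0. Without that mouse the Elk3 differences were -0.09 to 0.13 and the Elk1 differences -0.15 to 0.12.

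Some markers of cells that a DP sort could also hold were above the Xist reference. Of 20 such genes, each read by its brightest probe set, 7 stayed below 5.07 in all untreated arrays, among them Cd68 and Itgam of macrophages, Hba-a1 and Alas2 of red cells and Col1a1 of stroma. The untreated median was above it for 6, which were Cd79b of B cells (7.17 to 8.15), Csf1r and Lyz2 of macrophages (5.97 to 7.25 and 4.80 to 5.70), Krt5 of epithelium (5.35 to 6.75), Il2rb (4.75 to 6.16) and S1pr1 of mature T cells (5.01 to 6.88). The untreated level differed by Sap-1 status at an adjusted p under 0.05 for 0 of the 20 (limma, lowest adjusted p = 0.76). Of 26 probe sets of epithelial and stromal markers, 4 (Krt8, Krt14 and both for Col1a2) had a smaller change at an unadjusted p under 0.05 and 0 a larger one, 15.4% of the list beside 3.35% of all probe sets. The count with smaller changes was 1 to 10 on leaving out each mouse in turn, 3 without ElkSapKO mouse 2 and 10 without ElkSapKO mouse 3. The mean over this list was 4.01 to 4.17 in the untreated arrays of mice having Sap-1 and 4.10 to 4.70 in those lacking it. Without ElkSapKO mice 1 and 2 the count was 0, an alternative chosen after the data were seen. What part these markers have in the other results was not tested.

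The response as a whole was present in both groups. Averaged over the 12 mice, 1082 probe sets (2.40%) responded at an adjusted p under 0.05, 647 up (1.44%) and 435 down (0.966%). The 111 with an averaged rise of at least 1, called induced here, had single symbols for 64 genes. Without Sap-1 their rise was smaller for 37 (33.3%) and larger for 74, and the median difference was 0.13, against -0.01 over all probe sets. The change was smaller for 51.6% of all probe sets. It was smaller for 35.7% of the 16608 with a mean log2 signal of at least 6, whose median difference was 0.07. The split of the induced probe sets was thus near that of bright ones. Of the 111, 8 had a smaller (7.21%) and 15 a larger rise (13.5%) at an unadjusted p under 0.05 in limma, beside 2.05% and 1.3% of all probe sets. In the 6 mice the median rise over the 111 was 1.41 to 1.87 without Sap-1 and 1.00 to 1.78 with it, which overlapped, and its lowest value was that of ElkKO mouse 1.

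The 8 induced probe sets with smaller rises at that p were Egr1, Egr2, Egr3, Ier2, Junb, Zfp36 and 1 without a symbol, whose averaged rises were 2.19 to 6.43 except for the last, at 1.41. The 15 with larger rises had means of 0.61 to 1.68 with Sap-1, among them Slc16a10, Nabp1, Cd5, Ikzf2, Crem, Evi2a and both Srfbp1 probe sets. Evi2a, a membrane protein, differed by 0.77 and Srfbp1, which binds Srf, by 0.56 and 0.66. With limma array weights the induced split was 54 smaller and 57 larger with a median of 0.00, and without ElkSapKO mice 1 and 2 it was 50 and 61. Leaving out 1 mouse gave 46 and 65 without WT mouse 1, 45 and 66 without ElkKO mouse 1, and 33 to 38 smaller without an ElkSapKO mouse. The 89 probe sets lowered by 0.50 or more on average held 0 at an unadjusted p under 0.05, and 0 at an adjusted p under 0.05, in limma. Those with the smallest p were Tent5c, Brdt, Gcc2, Armc7 and H2bc21, with differences of -0.45 to 0.48.

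**Figure D4:**
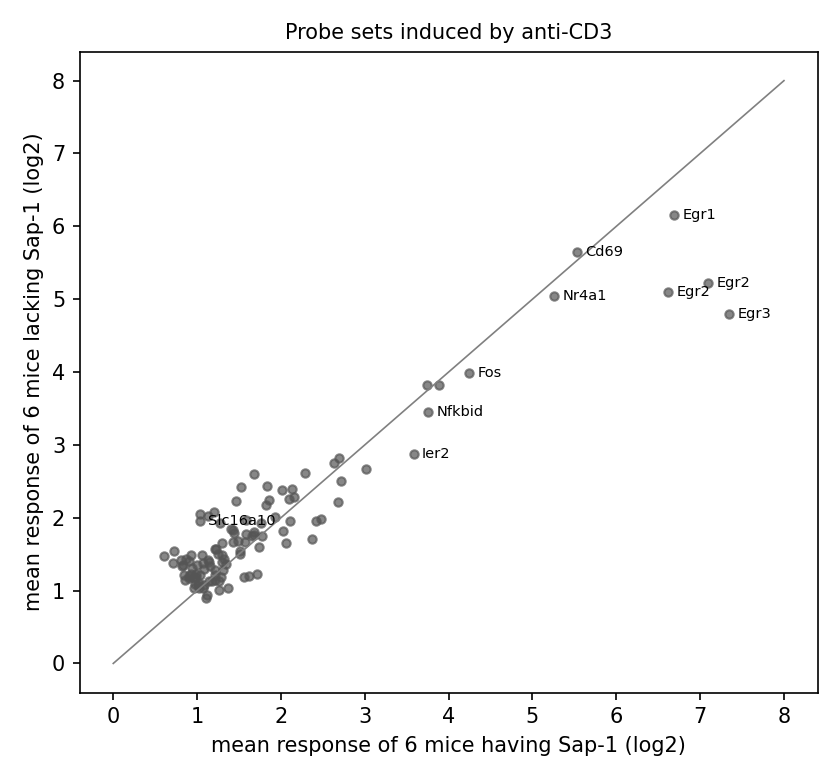
Mean response of the 6 mice lacking Sap-1 (vertical axis) against that of the 6 having it (horizontal axis) for the 111 induced probe sets, both on the log2 scale, with a line where they are equal. Egr3 and both Egr2 probe sets lie furthest below the line, and 74 of the 111 lie above it.

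The same difference was formed separately with and without Elk-1, as SapKO minus WT and as ElkSapKO minus ElkKO, which share no mouse. No probe set passed the adjusted test in either (limma, 866 and 2154 at an unadjusted p under 0.05) or in their difference, the interaction (0 called, 987 at an unadjusted p under 0.05). Over the 111 induced probe sets the 2 differences correlated at r = 0.64 (Spearman 0.48), and at 0.40 without the Egr2 and Egr3 probe sets. Over all 45037 they correlated at 0.22, and these are descriptions across probe sets, which are not independent and share their arrays. The 2 differences had the same sign for 79 of the 111 (71.2%), beside 56.5% of all probe sets. For the 89 lowered probe sets the correlation was -0.15.

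Single genes kept their size on both backgrounds in several cases. Egr2 differed by -1.42 and -1.63 on 1427682_a_at, Cxcr4 by -0.46 and -0.48, and Slc16a10 by 0.96 and 0.88, first without and then with the Elk-1 deletion. Ier2 differed by -0.70 and -0.71 in the same order, but this match rests on ElkSapKO mouse 2. Without that mouse the Ier2 difference over both backgrounds fell from -0.70 to -0.49. Ncoa7 differed by -1.34 and -0.79, and its interaction of 0.55 had an unadjusted p of 0.18 in limma. The value of -0.79 includes the outlying response of ElkSapKO mouse 2, at 0.93. Without that mouse the Ncoa7 difference over both backgrounds went from -1.06 to -1.24. Cd69 differed by -0.72 and 0.96, with an interaction of 1.68 (unadjusted p = 0.14).

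**Figure D5:**
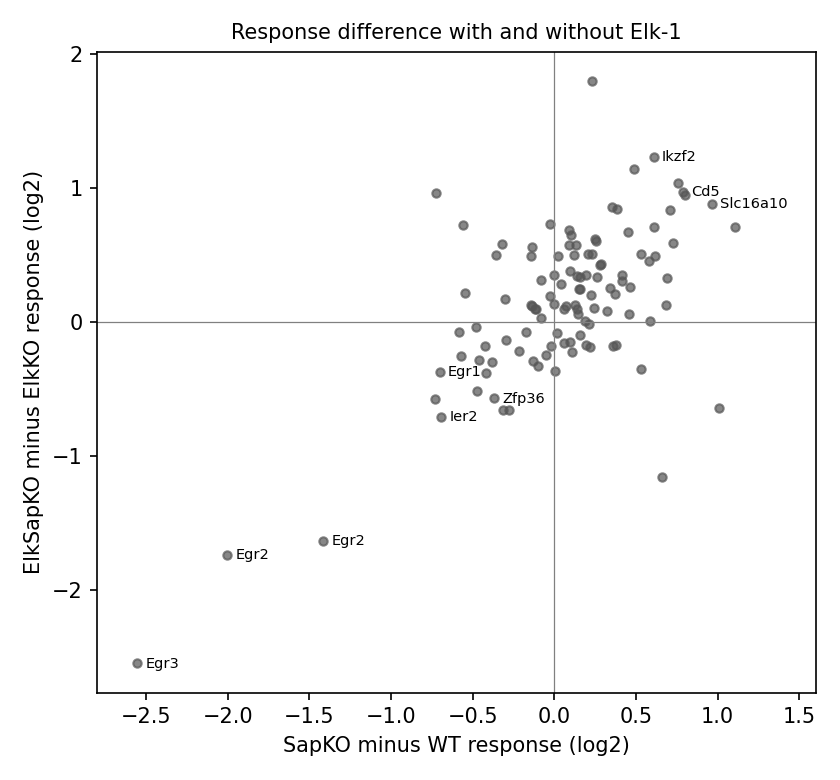
Response difference of SapKO minus WT (horizontal axis) and of ElkSapKO minus ElkKO (vertical axis) for the 111 induced probe sets on the log2 scale, each from 3 against 3 mice. Egr3 lies at -2.55 and -2.54 and both Egr2 probe sets lie in the same quadrant, apart from the other probe sets.

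Levels that differed by Sap-1 status in untreated cells were mostly called after anti-CD3 as well. Of the 45037 probe sets, 25 (0.0555%) were called untreated, 14 higher (0.0311%) and 11 lower (0.0244%) without Sap-1, and 50 (0.111%) after anti-CD3, 29 higher (0.0644%) and 21 lower (0.0466%). The lists have 19 in common, 76.0% of the first and 38.0% of the second. Of the 50, 5 were induced probe sets, those of Egr1, Egr2 (2), Egr3 and Fos.

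Calls in the untreated state were concentrated near Elk4. Of 15 called untreated with a known chromosome, 7 were on chromosome 1 and within 100 genes of Elk4, and of 33 called after anti-CD3, 9 were. Over all probe sets 6.18% lie on that chromosome, and 376 probe sets lie within that range. The counts are of probe sets and include Elk4 itself, on 1427162_a_at in both states and on 1447571_at after anti-CD3. They also include both Mgat5 probe sets after anti-CD3. Ctse, a protease gene 8 genes from Elk4, was higher by 4.09 untreated and by 4.24 after anti-CD3, and its response differed by 0.15. Slc41a1, Mgat5, Kdm5b, Ube2t, Rabif and Rnpep are the others. On chromosome 4, Nmnat1, which makes NAD in the nucleus, was higher by 3.37 and 3.66 untreated on 2 probe sets and by 3.23 and 3.82 after anti-CD3. Rbp7 and Insl5, also on chromosome 4, were called in both states too. Rbp7 was higher by 2.45 untreated and by 2.24 after anti-CD3, and Insl5 by 1.78 and 1.86. Calls away from Elk4 thus included a second group on 1 chromosome. Among probe sets with a response difference at an unadjusted p under 0.05, 6.405% were on chromosome 1. The deletion itself and DNA carried along with it cannot be told apart here.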

How the data were processed

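The values were log2 signals of 45101 probe sets on 24 Mouse430_2 arrays deposited by the authors, made by RMA with affy per the submitters' processing notes (versions and genome build: not given in the sources used here). RMA corrects background, quantile normalizes arrays and summarises probes, so a shift shared by most genes is removed. The 64 control probe sets were left out. A single symbol was listed for 34945 probe sets, several for 932 and none for 9160, and symbols were updated through a RefSeq gene table (GRCm38.p6; 18032 genes matched).

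Responses per mouse were fitted with limma 3.58.1 (R 4.3.3), with 4 genotype means of 3 mice and 8 residual degrees of freedom, two-sided moderated tests and Benjamini-Hochberg adjustment over the 45037 probe sets; untreated and anti-CD3 levels were fitted in the same way. The labels give mouse numbers, so p-values measure the spread between these 12 mice. The title numbers were taken to pair the arrays of a mouse: deviations of the 12 pairs from their group means correlated at 0.12 to 0.85 over 16608 probe sets, 9 of 12 best with their own number. For ElkKO mice 1 and 2 the correlation was 0.69 and 0.65 across numbers, against 0.13 and 0.20 within. Single values were also compared by an exact two-sided permutation test over the 924 splits of 6 against 6. The code was tested on simulated data.

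Named genes were drawn from all Elk1, Elk3, Elk4 and Srf probe sets, those called, the 10 smallest p each way, the 10 smallest p and 10 largest rises among induced, 5 among lowered and up to 4 per gene list; genes outside this rule are marked as looked up after their values were seen. Members and lists were chosen with earlier results of these data known. Alternatives were the pairing, the model, centring, a filter at a mean log2 signal of 6, array weights, variance settings, 1 probe set per gene, the dap group and leaving out each mouse. Figures used matplotlib 3.10.9 in Python 3.11.15.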

Additional observations from a re-analysis of the deposited data

Results flagged for a closer look

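The response of Egr3 (1436329_at) differed between mice lacking and having Sap-1 by -2.55 (limma adjusted p = 0.0136), the difference that the test itself called.

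Within the 6 mice of a Sap-1 status, a single mouse lay far from the other 5 in 15 of 124 groups looked at (12.1%); chance gives about 1 in 20. In 14 of the 15 it was ElkSapKO mouse 2, whose untreated array stood apart. Among genes with a difference in the report these were Ncoa7 (0.93 against -0.27 to 0.16 in the other 5 mice), Btg2 on 1448272_at (-1.01 against -0.42 to -0.17), Cd28 (1.41 against 0.56 to 0.84), Nabp1 on 1460521_a_at (3.00 against 0.91 to 1.45) and Ikzf2 (4.67 against 1.68 to 2.48). Among ternary complex factors and Srf they were Elk3 (1.85 on 1448797_at, 1.02 on 1417662_at and -0.62 on 1445886_at), Elk4 on 1447571_at (-1.35) and Srf on 1418256_at (-0.66 against 0.44 to 0.96). The others were Themis (1.37), Tent5c (0.42), Armc7 (-0.96) and H2bc21 (0.75). The exception was ElkKO mouse 2, with -0.55 for Elk3 on 1445886_at.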

How the results depend on the processing

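A count over the alternatives was made for 62 of the probe sets named, and the others named are not in it. Of these 62, 45 never had the opposite direction, 59 were never called and 3 were called in at least 1 setting. The fit with no replicate block, which leaves the pairing out, kept 1 call by Sap-1 status and gave 1 each for SapKO against WT and ElkSapKO against ElkKO. Calls by Sap-1 status were 2 with ElkKO mice 1 and 2 exchanged, and 0 with trend and robust settings, with 1 probe set a gene (Egr3 is then read by 1421486_at), with the dap group as a covariate and within the low or the high dap mice; leaving out 1 mouse gave 0 to 2. SapKO against WT and ElkSapKO against ElkKO had 1 call each with array weights, and 0 to 1 each on leaving out 1 mouse. The averaged response had 654 calls with no replicate block, 353 with 1 probe set a gene and 700 to 2650 on leaving out 1 mouse. Untreated differences numbered 4324 with array weights, 9 with 1 probe set a gene and 12 to 66 on leaving out 1 mouse. Differences after anti-CD3 numbered 19 with 2 groups of 6, 179 with array weights, 23 with 1 probe set a gene and 32 to 241 on leaving out 1 mouse. Where a setting tests fewer features or mice its own construction changes the count; otherwise the cause was not tested. Centring the arrays moved the median of all probe sets by under 0.1. Arrays give no counts, and signals near the Xist level carry little information.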
